A study of Mus musculus with 24 samples.

Results

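Clade A serpins are a family of secreted protease inhibitors and carrier proteins, most of which the liver releases into blood. An inhibitory serpin offers its exposed reactive loop to a protease, is cut, and traps the enzyme in a covalent complex. A few relatives have lost that activity and carry small hormones instead. Serpina6 encodes corticosteroid-binding globulin, which carries glucocorticoids, and Serpina7 encodes thyroxine-binding globulin, which carries thyroid hormone. Most mouse Serpina genes lie side by side in 1 cluster that has grown by gene duplication, so near-identical copies are common, above all among the relatives of alpha-1-antitrypsin and of antichymotrypsin.

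The genes described are 10 Serpina genes: the hormone carriers Serpina6 and Serpina7, and the inhibitors Serpina1a, Serpina1d, Serpina10, Serpina5, Serpina3c, Serpina3k, Serpina3m and Serpina3n. Their probes were found by the gene name in the scanner files or by the current symbol of the probe's accession. No probe carried Serpina1a, so 9 genes with 12 probes were measured, among 27845 gene names and 41174 probes on the array. Serpina10, Serpina5 and Serpina3k had 2 probes each. All 9 passed the filter on dim probes in liver, among 16364 genes kept there, and 2 of them, Serpina1d and Serpina3n, passed it in brain, among 18298. The genes were chosen by values of these same arrays, mainly their differences between G20 and NC, so those differences are described below without a test.

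RNA from brain and liver of newborn female mice was hybridised to 24 single-colour arrays, 4 for each of 3 groups in each tissue. NC mice were controls made by ICSI, the injection of a sperm into an egg. CC mice were cloned from cumulus cells, which are somatic cells around the egg, and G20 mice came from the same kind of donor after 20 rounds of recloning. The background of every animal was the cross (C57BL/6 x DBA2) with 129/Sv, and the labels name no treatment. The design counts 4 G20 neonates, but all G20 arrays share 1 source name, so p-values and SDs measure the spread between arrays, which may be technical in part. A level is the log2 of the processed signal minus the 75th percentile of its array, so 0 is the signal of that percentile. Levels of different probes are not compared with each other.

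Each group of each tissue lay on its own slide. NC and G20 arrays of a tissue were scanned in the same session, while CC was scanned later, on day 221 counted from the first session. Slide and group therefore cannot be told apart in any comparison, nor session and group where CC is compared. The share of probes well above background was 53.5% to 62.9% over the liver arrays and 62.4% to 70.6% over the brain arrays, lowest in CC in both tissues. The summed level of 15 hepatocyte genes was 10.95 to 12.24 in liver and 2.44 to 4.22 in brain, and that of 10 neuronal genes was 7.29 to 7.60 in brain and −1.45 to 1.40 in liver.

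The genes other than Serpina7 lie on chromosome 12. In the mm8 coordinates of the files their probes span chr12:104016120-104814817, which is 799 kb. From the start of that span the order is Serpina10, Serpina6, Serpina1d, Serpina5, Serpina3c, Serpina3k, Serpina3m and Serpina3n. The probe of Serpina7 lies on chromosome X at chrX:134427673-134428327. The Serpina1d probe lists accessions of 3 genes, Serpina1d, Serpina1e and Serpina1c, and the neighbouring Serpina1c probe lists those of 4, so neither reads a single alpha-1-antitrypsin copy. The other member probes list the accession of 1 gene, except 1 Serpina10 probe whose accession was not matched. Whether they also bind relatives was not tested.

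RefSeq's promoter table (GRCm38.p6) held 6 of the 10 genes. The 250 bases before the start of Serpina3c and Serpina3n are shown because these genes of the cluster are close copies whose liver levels differed between the groups in different ways. Serpina3c lies on the minus strand at chr12:104153873-104154122 and Serpina3n on the plus strand at chr12:104406458-104406707. Both are written 5′ to 3′ on the strand of the gene, ending at the base before the start, with capitals at the bases that differ or have no partner in the alignment.
Serpina3c: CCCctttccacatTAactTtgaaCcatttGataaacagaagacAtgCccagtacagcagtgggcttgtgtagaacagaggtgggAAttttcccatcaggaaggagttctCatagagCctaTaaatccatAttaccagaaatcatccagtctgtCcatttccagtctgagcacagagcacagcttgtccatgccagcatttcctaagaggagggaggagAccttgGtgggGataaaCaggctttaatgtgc
Serpina3n: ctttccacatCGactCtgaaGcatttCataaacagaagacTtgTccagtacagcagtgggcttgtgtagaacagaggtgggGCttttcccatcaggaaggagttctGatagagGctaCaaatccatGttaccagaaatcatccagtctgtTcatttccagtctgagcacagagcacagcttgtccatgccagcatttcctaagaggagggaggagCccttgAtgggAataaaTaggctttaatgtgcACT
The aligned windows matched at 229 positions and differed at 18, an identity of 92.7% with gaps left out. Serpina1a and Serpina1d were equally close, at 93.1%, and the other pairs of these 6 genes aligned at 58.4% to 67.3%. Short motifs were searched on both strands. The TATA box TATAAA occurred once in the Serpina3c window and not in that of Serpina3n, against 12.4% of all 32851 promoter windows with at least 1 match. The HNF1 half-site GTTAAT occurred once in Serpina3c, Serpina1a, Serpina1d and Serpina7 and not in Serpina3n or Serpina5 (6.4% of windows). The glucocorticoid receptor half-site AGAACA occurred once in each of the 6 except Serpina7 (16.1%). The C/EBP motif TTGCNNAA occurred 2 times in Serpina5 and once each in Serpina1d and Serpina7 (9.6%), and the STAT motif TTCNNNGAA in none of the 6 (7.0%). A match is a match of letters anywhere in the window, not a measured site. Its distance from the start was not taken into account, for the TATA box either.

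The 2 hormone carriers were both high in G20 liver. Serpina6 had levels of −0.86, −0.26, −0.52 and 2.58 on the 4 NC liver arrays, −1.53, 0.97, 0.29 and −0.52 on the CC arrays, and 4.37, 4.90, 5.50 and 6.14 on the G20 arrays. All G20 values lay above all NC and CC values, and CC and NC overlapped. NC replicate 4 stood well above the other NC animals. The group means were 0.24 ± 1.58 in NC, −0.20 ± 1.08 in CC and 5.23 ± 0.76 in G20 (SD, n = 4), which put G20 over NC by 4.99 ± 0.74 (difference ± standard error of the fit), or 31.7-fold. With single arrays left out it ranged from 4.62 without NC replicate 1 to 5.77 without NC replicate 4. Between CC and NC the difference was −0.44 ± 0.74 (limma adjusted p = 0.666), with a sign that turned to 0.35 without NC replicate 4 and to 0.01 without CC replicate 1.

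Serpina7 had levels of −0.36, −0.58, −0.02 and −1.87 in NC liver, 0.87, 0.68, 0.33 and −0.12 in CC liver and 2.38, 1.93, 1.45 and 2.20 in G20 liver. The G20 values lay above those of both other groups, while CC overlapped NC by a single pair of values. Its mean was −0.71 ± 0.81 in NC, 0.44 ± 0.43 in CC and 1.99 ± 0.40 in G20 (SD, n = 4). G20 exceeded NC by 2.70 ± 0.36. Serpina7 rose in CC liver by 1.15 ± 0.36, which is 2.22-fold (limma adjusted p = 0.0255). That limma call was lost without CC replicate 1 (adjusted p = 0.0629), without CC replicate 2 (0.0633) and after normexp background correction (0.261). NC replicate 4, the highest NC array for Serpina6, was the lowest of the 4 for Serpina7.

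**Figure D1:**
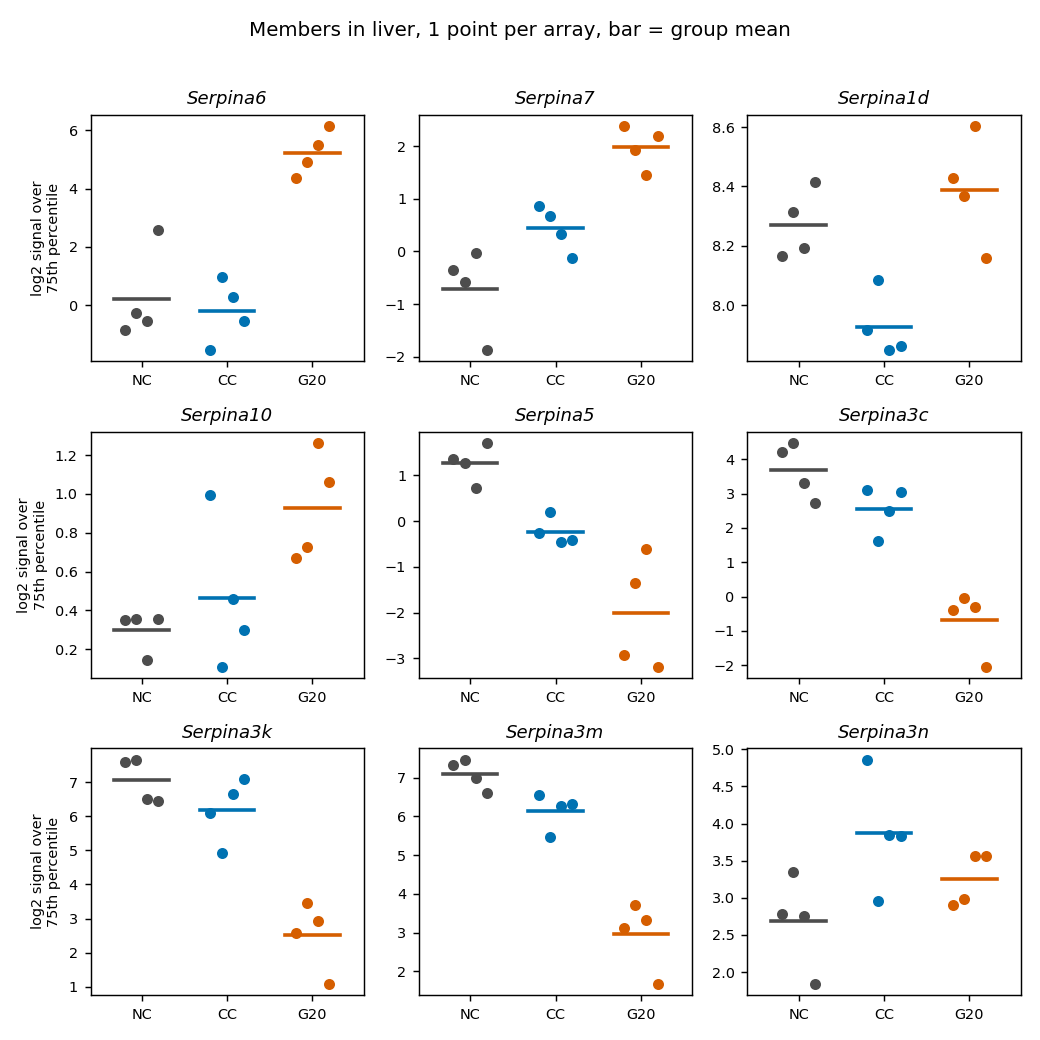
Levels of 9 Serpina genes on the 12 liver arrays, as log2 signal over the array's 75th percentile, with 1 point per array in each of the groups NC, CC and G20 and a bar at the group mean (each panel has its own scale). Serpina6 and Serpina7 are highest in G20, where Serpina5, Serpina3c, Serpina3k and Serpina3m are lowest.

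Of the inhibitors of the alpha-1-antitrypsin and coagulation branches, Serpina1d and Serpina10 differed from NC in liver by −0.34 to 0.63, and Serpina5 by more. Serpina1d encodes an alpha-1-antitrypsin, the blood inhibitor of neutrophil elastase. Its levels were 8.16, 8.32, 8.19 and 8.41 in NC liver, 7.92, 8.08, 7.85 and 7.86 in CC liver and 8.43, 8.37, 8.60 and 8.16 in G20 liver. All 4 CC values lay below all NC values, by a small margin, and G20 overlapped NC. Serpina1d fell in CC liver by 0.34 on the log2 scale (standard error 0.10, limma adjusted p = 0.0209), from a mean of 8.27 ± 0.12 to 7.93 ± 0.11 (SD, n = 4). This small difference depended on the scaling and on single arrays. In limma it was −0.27 with arrays centred on their medians (adjusted p = 0.0672), −0.28 after normexp (0.648) and −0.14 in the deposited matrix (0.296), and turned to 0.20 after quantile normalization (0.119). Liver CC means of the matrix sit near those of G20 over all probes, as described below. The call was also lost without CC replicate 3 or 4 or NC replicate 2 or 4, with adjusted p between 0.0511 and 0.0569. G20 and NC differed by 0.12 ± 0.10.

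Serpina10 encodes the protein Z-dependent protease inhibitor, which acts on coagulation factor X and XI. Its brighter probe read 0.35, 0.36, 0.14 and 0.35 in NC liver, 0.99, 0.11, 0.46 and 0.30 in CC liver and 0.67, 0.72, 1.26 and 1.06 in G20 liver. G20 lay above NC on every array, and CC overlapped both. The difference was 0.63 ± 0.18 between G20 and NC and 0.16 ± 0.18 between CC and NC (limma adjusted p = 0.501). The other probe gave 0.46 between G20 and NC, with overlapping values, and 0.42 between CC and NC.

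Serpina5 encodes protein C inhibitor, which in mice is best known from the reproductive tract. Its levels were 1.35, 1.26, 0.72 and 1.71 in NC liver, −0.25, 0.19, −0.46 and −0.42 in CC liver, and −2.92, −1.35, −0.61 and −3.19 in G20 liver. The 3 groups did not overlap, with NC highest and G20 lowest. Serpina5 fell in CC liver 2.82-fold (limma adjusted p = 0.0277), from a mean of 1.26 ± 0.41 to −0.24 ± 0.30 (SD, n = 4). With single arrays left out the limma adjusted p lay between 0.0301 and 0.068, and the call was lost without CC replicate 3 or 4 or NC replicate 1, 2 or 4. It was also lost after normexp (0.26). The difference between G20 and NC was −3.28 ± 0.48. The second Serpina5 probe was well above background on all 4 NC arrays but on 1 of 4 in CC and in G20, so no size is given for it.

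Mouse Serpina3 genes are a duplicated relative of the single human antichymotrypsin gene, and their products inhibit different serine proteases. Serpina3k encodes an inhibitor of tissue kallikrein, known as kallistatin or contrapsin-like protein. Its levels were 7.58, 7.66, 6.51 and 6.45 in NC liver, 6.08, 4.91, 6.66 and 7.08 in CC liver and 2.58, 3.45, 2.92 and 1.09 in G20 liver, on the brighter of its probes. Every G20 value lay below every value of the other groups, and CC overlapped NC. The mean was 7.05 ± 0.66 in NC, 6.18 ± 0.94 in CC and 2.51 ± 1.01 in G20 (SD, n = 4). The difference between G20 and NC was −4.54 ± 0.55, which is 23.3-fold. The CC difference was −0.87 ± 0.55 (limma adjusted p = 0.229), from −1.17 without CC replicate 4 to −0.45 without CC replicate 2.

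The 2 Serpina3k probes lie side by side and gave differences of unequal size. The second read 6.99, 6.90, 6.52 and 6.65 in NC liver, 5.04, 4.74, 5.66 and 5.49 in CC liver and 3.59, 4.32, 3.86 and 1.83 in G20 liver. On this probe the groups were in the same order and did not overlap at all. The difference from NC was −1.53 ± 0.43 in CC (adjusted p = 0.0144 in limma over all kept probes) and −3.37 ± 0.43 in G20. Which transcripts each probe binds was not tested.

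Serpina3m, an antichymotrypsin-like gene next to Serpina3k, read 7.33, 7.46, 6.99 and 6.61 in NC liver, 6.54, 5.47, 6.26 and 6.31 in CC liver and 3.12, 3.70, 3.34 and 1.68 in G20 liver. The groups did not overlap. The difference from NC was −4.14 ± 0.39 in G20 and −0.95 ± 0.39 in CC. The latter did not pass the threshold (limma adjusted p = 0.0695), but passed it with NC and CC arrays fitted alone (0.0201) and in the deposited matrix (−4.31, adjusted p = 0.000137). In the matrix liver CC means sit near G20 means, so −4.31 does not stand for the CC arrays as scanned.

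Serpina3c, an antichymotrypsin-like kallikrein-binding protein gene, read 4.2, 4.49, 3.31 and 2.72 in NC liver, 3.12, 1.61, 2.49 and 3.05 in CC liver and −0.38, −0.04, −0.31 and −2.05 in G20 liver. G20 was below both other groups, with replicate 4 lowest, as for Serpina3k and Serpina3m. The G20 difference from NC was −4.38 ± 0.51 and the CC difference −1.12 ± 0.51 (limma adjusted p = 0.1, and 0.0477 without NC replicate 4).

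Serpina3n encodes a secreted inhibitor of granzyme B and neutrophil elastase whose transcript is known to be induced by inflammation and glucocorticoids. It read 2.79, 3.35, 2.76 and 1.84 in NC liver, 4.86, 2.95, 3.85 and 3.84 in CC liver and 2.91, 2.98, 3.56 and 3.56 in G20 liver. All 3 groups overlapped, and the highest value was that of CC replicate 1. Serpina3n rose in CC liver by 1.19 ± 0.38, which is 2.28-fold (limma adjusted p = 0.0277). The limma call was lost without CC replicate 1 (0.86, adjusted p = 0.0662), CC replicate 3 (0.0528) or 4 (0.0515) or NC replicate 4 (0.91, adjusted p = 0.0748). It was also lost when NC and CC arrays were fitted alone (0.0534), with the replicate number as a block (0.0526), after normexp (1.20, adjusted p = 0.313) and in the deposited matrix (0.37, adjusted p = 0.545). The G20 difference from NC was 0.57 ± 0.38, and ranged from 0.29 without NC replicate 4 to 0.79 without NC replicate 2. Serpina3n was thus the Serpina3 member that did not lie lower in G20, beside Serpina3m in the cluster and with the window before its start that was compared above with that of Serpina3c.

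Counted over the 9 genes in liver, CC against NC gave 2 higher (Serpina3n and Serpina7) and 2 lower (Serpina1d and Serpina5). Over all genes 19.7% were called higher and 21.0% lower, so the members' share is close to the background. The median difference was −0.44 over the 9 genes and 0.02 over all genes. For G20 against NC the groups did not overlap for 3 genes in the higher direction (Serpina6, Serpina7 and Serpina10) and 4 in the lower (Serpina5, Serpina3c, Serpina3k and Serpina3m). The background was 10.6% higher and 6.99% lower over all genes, and nothing is read from that count since this contrast chose the genes. The CC and G20 differences share the NC arrays.

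Markers of other cells and of hepatocytes moved in CC liver. Of 15 hepatocyte genes 1 was called higher and 12 lower, and their summed level was 10.95 to 11.43 in CC, 11.93 to 12.10 in NC and 11.94 to 12.24 in G20. The erythroid list, 12 genes of the blood-forming cells that newborn liver still holds, had 0 higher and 5 lower, with summed levels of 7.72 to 10.18 in CC, 10.35 to 10.56 in NC and 10.55 to 10.76 in G20. Of 10 stellate cell and fibroblast genes 6 were higher and none lower (6.53 to 7.03 in CC, 6.25 to 6.44 in NC). Their part in the CC results was not tested. Between G20 and NC liver 0 of the 15 hepatocyte and 0 of the 12 erythroid genes passed the threshold in limma, with 2 of each under an unadjusted p of 0.05. Of 10 endothelial genes 3 were lower in G20 liver, with 5 under an unadjusted p of 0.05 and a summed level of 4.07 to 4.23 against 4.38 to 4.53 in NC. The stellate cell and fibroblast, astrocyte and choroid plexus lists had 1 gene lower each, and the summed stellate cell and fibroblast level was 6.03 to 6.23. None of the marker lists had a gene called higher in G20 liver, and their part in the G20 values was not tested. In bulk tissue, fewer cells of a type and less RNA per cell cannot be told apart.

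Along the cluster, 22 of the 30 probes were kept in liver. The G20 differences are described in 2 stretches, whose borders were set after the values were seen. The members among these probes were chosen mainly by this contrast, so no pattern of position is read from them. From Serpina10 to Serpina11, the first 368 kb, the probes other than that of Serpina6 lay between −0.56 and 0.63. From Serpina4-ps1 to Serpina3m, between 466 and 779 kb, probes at −4.54 to −3.28 stood among the second Serpina5 probe, dim in G20, and Serpina3a (−0.90), LOC667984 (0.42) and Serpina3g (−0.59). Serpina4-ps1, a pseudogene next to Serpina5, differed from NC by −3.63 ± 0.49 in G20 (limma adjusted p = 0.00185), where its 2 probes were well above background on 2 and 3 of 4 arrays, and by −1.39 ± 0.49 in CC (adjusted p = 0.0406). Between G20 and NC liver 7.31% of all genes were called.

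**Figure D2:**
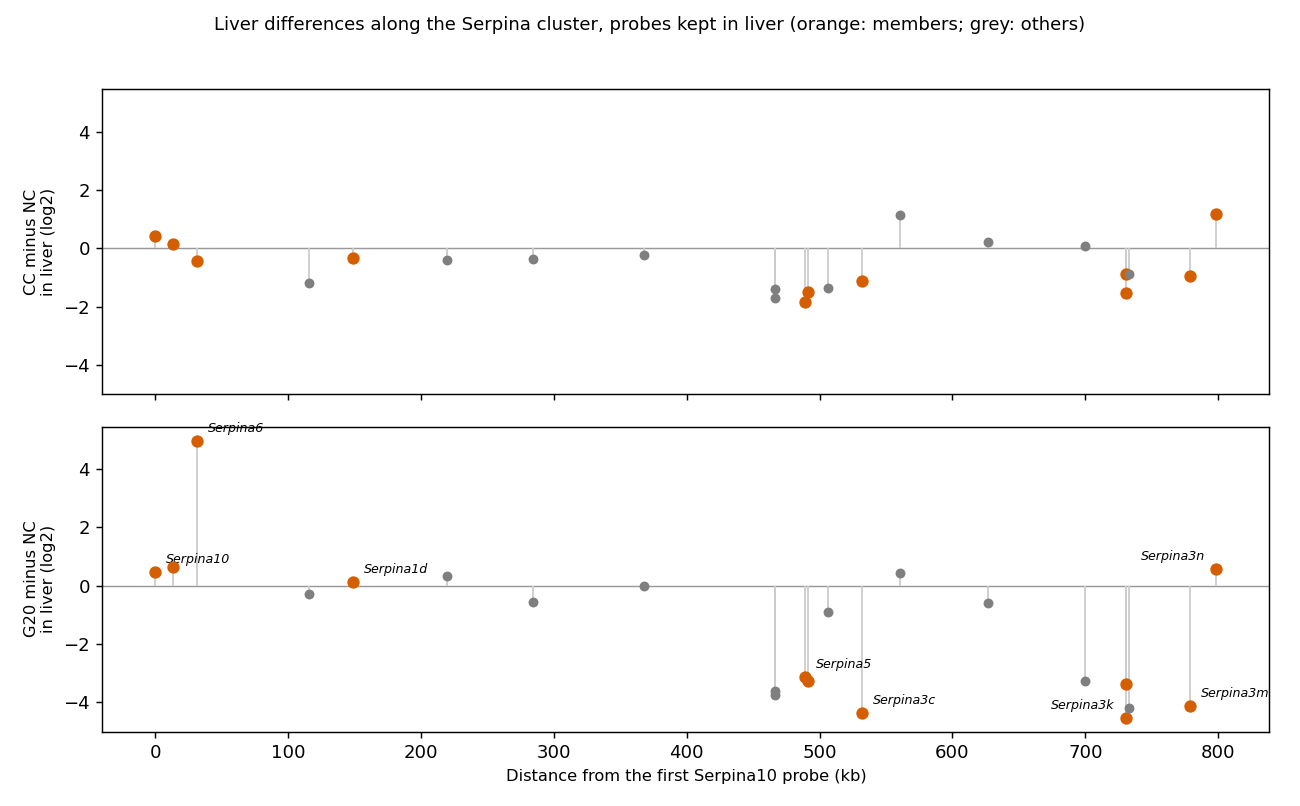
Liver differences in log2 signal of CC minus NC (top) and G20 minus NC (bottom) for the 22 probes kept in liver, by distance in kb from the first Serpina10 probe, members in orange and other genes in grey. In G20 the Serpina6 probe stands at 4.99, while the brighter Serpina5 probe, 1 probe of Serpina3c, 2 of Serpina3k and 1 of Serpina3m lie between −4.54 and −3.28. The second Serpina5 probe, also drawn, was well above background on 1 of 4 arrays in CC and in G20, so its differences are not read as sizes.

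Of 16 other Serpina genes, 10 had a probe under the names listed, and 6 were tested in liver. Of these, 2 fell in CC, 1 fell in G20 and none rose by limma. The counts leave out EG238395, a synonym of Serpina3j in RefSeq, which differed from NC by 0.07 in CC and −3.28 in G20. Serpina1b, an alpha-1-antitrypsin copy, differed from NC by −1.20 ± 0.10 in CC liver (limma adjusted p = 4.51e-06). Its CC levels were 5.35 to 5.69 and its NC levels 6.62 to 6.85. In G20 it differed by −0.29 ± 0.10 (limma adjusted p = 0.11). Serpina1c (−0.35 ± 0.17, limma adjusted p = 0.13) and Serpina11 (−0.22 ± 0.21, 0.415) did not pass the threshold in CC. Serpina3a, another antichymotrypsin relative, read −0.46 and −0.23 on NC replicates 1 and 2 and −4.84 and −5.45 on NC replicates 3 and 4. On NC replicates 3 and 4 it was not well above background. In CC liver it lay at −5.49 to −2.59, well above background on 2 of 4 arrays. In G20 liver it lay at −4.42 to −2.87, well above background on all 4.

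The genes whose liver pattern was most like that of Serpina3k were ranked by the root mean square difference of gene-centred levels over the 12 liver arrays, among 16214 genes. BI329779, a transcript whose probe lies at 733 kb beside those of Serpina3k at 730.4 and 731 kb, came first at 0.28. It was followed by Apoc3, the apolipoprotein of triglyceride-rich particles (0.61), EG238395, a name that RefSeq lists as a synonym of Serpina3j (0.71), the fatty acid hydroxylase Cyp4a12a (0.72) and the acyltransferase Acnat2 (0.74). Among the members, Serpina3c stood at 0.37 from Serpina3k, Serpina3m at 0.43 and Serpina5 at 1.15. Serpina3c and Serpina3m were nearer to Serpina3k than any gene of that list except BI329779. The members were chosen mainly by their G20 differences, which these distances include, so their nearness is not read as a result.

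No gene followed Serpina6 that closely, but Serpina6 was chosen by its large G20 difference, and the distance grows with such a difference. The nearest 5 were Greb1 at 1.68, the troponin gene Tnnc1 at 1.70, C230002E15Rik at 1.75, Raet1e at 1.76 and 2610042L04Rik at 1.78. The nearest member was Serpina7, at 2.13.

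Genes that carry hormones and vitamins in blood besides these serpins fell in CC liver. Of 10 such genes 9 fell and none rose by limma, with a median difference of −0.76 against 0.02 over all genes. The sex steroid carrier Shbg differed by −1.59 ± 0.39 (limma adjusted p = 0.00654) and albumin (Alb) by −1.32 ± 0.14 (0.000154). Transthyretin (Ttr), which carries thyroxine, differed by −1.14 ± 0.17 (0.000326), the growth factor carrier Igfbp3 by −0.82 ± 0.11 (0.000131) and the fetal carrier Afp by −0.80 ± 0.08 (2.37e-05). Beside these, Serpina7 differed by 1.15 and Serpina6 by −0.44, as given above. Most genes of this list are hepatocyte products. The hepatocyte list, which shares genes such as Alb and Afp with it, moved the same way, and its part in these differences was not tested. In G20 liver 1 of the 10 fell and none rose by limma, with a median of 0.05.

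Serpins of other clades gave 2 higher and 4 lower of 10 in CC liver and 2 higher in G20 liver. Over all genes 19.7% were called higher and 21.0% lower in CC liver, and 7.31% in either direction in G20 liver. These shares are the background of the other list counts in liver too. Serpinc1, antithrombin, differed in CC by −0.71 ± 0.10 (limma adjusted p = 0.000224), the collagen chaperone Serpinh1 by −0.56 ± 0.11 (0.00246) and angiotensinogen (Agt) by −0.42 ± 0.11 (0.0113). Serpinf1, pigment epithelium-derived factor, differed by −0.39 ± 0.10 (0.0123). Of the proteases that these inhibitors act on and their cofactors, 14 were tested in liver, of which 2 rose and 5 fell in CC. In G20 none passed in limma, with 4 under an unadjusted p of 0.05. Elane, neutrophil elastase and the target of alpha-1-antitrypsin, differed in CC by −1.70 ± 0.19 (limma adjusted p = 4.03e-05). The hyaluronan-binding protease Habp2 differed by −1.34 ± 0.17 (0.00011), prothrombin (F2) by −1.07 ± 0.09 (4.35e-06) and acrosin (Acr) by −0.54 ± 0.20 (0.0449). Elane and Prtn3 are also on the neutrophil list, of which 6 of 10 genes fell in CC liver, and Serpinc1 is on the hepatocyte list.

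Genes of the hormones that Serpina6 and Serpina7 carry were counted next. Of 13 tested genes of glucocorticoid action, 3 rose and 1 fell in CC liver, and 2 rose and 1 fell in G20 liver. The metallothionein Mt1 differed in CC by 1.06 ± 0.26 (limma adjusted p = 0.00642), the glucocorticoid-activating enzyme Hsd11b1 by 0.76 ± 0.13 (0.000718) and the glucocorticoid receptor Nr3c1 by 0.61 ± 0.09 (0.000294). Igfbp1 differed by −0.63 ± 0.12 (0.00172). Of 11 tested genes of thyroid hormone action, 1 rose and 2 fell in CC, and 2 fell in G20. Thrsp, a lipogenic target of thyroid hormone, differed in CC by −2.27 ± 0.75 (limma adjusted p = 0.0303), the deiodinase Dio2 by 1.09 ± 0.28 (0.00885) and the receptor Thrb by −0.49 ± 0.18 (0.0481).

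Regulators known to act on liver serpin genes were mixed. Of 20 tested hepatocyte transcription factors, 7 rose and 2 fell in CC liver, and 1 rose in G20 liver. Foxa1 differed in CC by −2.18 ± 0.20 (limma adjusted p = 7.04e-06), Onecut1 by −1.03 ± 0.22 (0.00322), Stat3 by 0.88 ± 0.13 (0.000341) and Dbp by 0.85 ± 0.28 (0.0298). Of 15 genes of growth hormone and interleukin 6 signalling, Stat3 rose and Jak2 fell in CC, and 3 genes fell in G20. Jak2 differed in CC by −0.32 ± 0.11 (limma adjusted p = 0.0407). The medians were −0.01 and −0.02 in CC and 0.13 and −0.09 in G20.

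Liver and brain were then compared in NC to see where the genes are read. Of the 9 genes, 7 passed the filter on dim probes only through liver, so no count over the 9 is read. Of all genes, 45.8% were called higher in liver and 43.2% lower. The brighter Serpina3k probe was at least 16689-fold higher, Serpina3m at least 11184-fold, Serpina3c at least 1633-fold, Serpina10 at least 157-fold and Serpina6 at least 150.0-fold. These 5 probes, for Serpina10 the brighter of its 2, were not well above background on any NC brain array, so the fold is a bound, taken against the higher of the probe's own signal and the lowest signal well above background on each brain array. Serpina5 and Serpina7 were well above background on 1 of 4 NC brain arrays. Serpina1d and Serpina3n were measured on all 4, and were higher in liver by 13.02 ± 0.34 (limma adjusted p = 2.15e-19) and 5.95 ± 0.32 (8.56e-14).

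In brain, the Serpina1d probe was higher in both kinds of clone. Its levels were −5.08, −3.55, −5.20 and −5.15 in NC brain, −1.74, −2.92, −3.88 and −2.82 in CC brain and −2.80, −2.37, −2.94 and −2.50 in G20 brain. NC replicate 2 stood apart from the other NC animals, and reached above the lowest CC value. G20 lay above all NC values, and its mean of −2.66 ± 0.26 exceeded that of NC, −4.75 ± 0.80 (SD, n = 4), by 2.09 ± 0.43. The background of genes whose groups did not overlap between G20 and NC brain was 7.38% higher and 4.69% lower. Of the 2 members, Serpina1d was in the higher group. Nothing is read from that, since the members were chosen mainly by this contrast.

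Serpina1d rose in CC brain by 1.91 ± 0.43 to a mean of −2.84 ± 0.88 (SD, n = 4), which is 3.75-fold in limma (adjusted p = 0.00191). The call stood under each alternative tried, with differences from 1.54 without CC replicate 1 to 2.30 without NC replicate 2. The background of calls was 41.5% higher and 27.8% lower, so 1 called gene of 2 is no more than the share of all genes. Serpina3n differed by −0.04 ± 0.19 in CC brain (adjusted p = 0.866). It read −3.65, −2.77, −3.36 and −3.29 in NC, −3.08, −3.54, −3.48 and −3.11 in CC and −2.96, −2.40, −2.94 and −2.82 in G20. Those ranges overlapped, and G20 differed from NC by 0.49 ± 0.19. NC replicate 2 was the highest NC array for Serpina3n too.

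Other liver products were measured beside Serpina1d in brain. Albumin (Alb) read −4.65, −4.27, −4.73 and −4.52 in NC brain, −1.36, −2.58, −4.19 and −3.08 in CC brain and −4.46, −3.56, −4.35 and −4.38 in G20 brain. Afp read −0.83, −1.95, −3.45 and −2.31 in CC brain against −4.16 to −3.89 in NC. Fgb, a fibrinogen chain, read −1.65, −3.12, −4.58 and −3.34 in CC against −5.69 to −5.36 in NC. In CC brain replicate 1 was highest and replicate 3 lowest for Serpina1d, Alb, Afp and Fgb alike. Not all hepatocyte genes did so. Cps1 read −5.96 to −5.14 in CC brain against −5.06 to −4.67 in NC, and Hpx was highest in CC replicate 3. Neither was well above background on any CC brain array. In G20 brain replicate 2 was highest for Serpina1d, Alb, Afp and Fgb. It read −3.56 for Alb, −2.87 for Afp and −4.68 for Fgb, above all NC values of each gene. Cps1 was highest in G20 replicate 3 and Hpx in G20 replicate 4. Of 9 hepatocyte genes tested in brain, 5 rose and 1 fell in CC, with a median of 1.74, and none passed in G20 by limma, with 1 under an unadjusted p of 0.05 and a median of 0.36. In brain 1.77% of all genes were called between G20 and NC. Erythroid genes, which mark blood, had summed levels of 6.32 to 7.44 in NC brain, 7.23 to 7.90 in CC brain and 7.62 to 7.75 in G20 brain. Of the 7 tested, 2 rose in CC by limma and none passed in G20, where 6 were higher at an unadjusted p under 0.05.

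The summed hepatocyte level in brain was 2.63 to 3.31 in CC, 2.64 to 2.76 in NC and 2.44 to 4.22 in G20. Vtn carries most of this sum, at 2.48 to 2.63 in NC, where Alb, Afp and Fgb lay at −3.89 or lower. The G20 maximum was that of replicate 4, on which Vtn read 4.17 without being counted well above background. Of the 15 genes of this list, 7 were not well above background on any CC brain array, 3 in NC and 6 in G20, among them Apob, Apoa1 and Fga in all groups. Alb in G20 brain lay at −4.46 to −3.56 and overlapped its NC range, and Serpina1d in G20 brain lay at −2.94 to −2.37, above its NC range. Serpina1b and Serpina1c, the other alpha-1-antitrypsin probes, were not well above background on any brain array. The Serpina1c probe lists the accession of Serpina1d too, so the rise in brain rests on the Serpina1d probe alone. Why the 2 probes differ was not tested. The part of liver or blood RNA in the brain values was not tested.

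**Figure D3:**
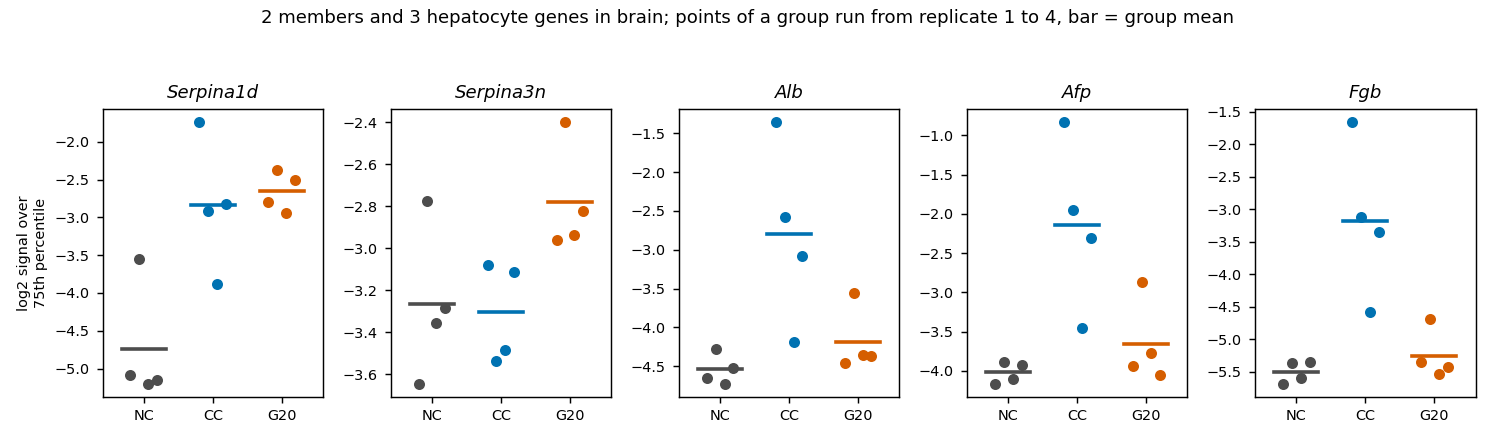
Levels of Serpina1d, Serpina3n and 3 hepatocyte genes (Alb, Afp and Fgb) on the 12 brain arrays, as log2 signal over the array's 75th percentile, with 1 point per array drawn from replicate 1 to 4 within NC, CC and G20 and a bar at the group mean (each panel has its own scale). Serpina1d is high in both CC and G20, whereas Alb, Afp and Fgb are high in CC, most of all in replicate 1. In G20, replicate 2 is highest for Serpina1d, Alb, Afp and Fgb, and lies above all NC values of each.

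The difference between CC and NC was set against itself in the 2 tissues, with a limma contrast over all 24 arrays. Of the 9 genes 1 was called higher in liver relative to brain and 6 lower, against a background of 22.0% higher and 30.8% lower. Only 2 of these rest on measured signal in both tissues. For Serpina1d the CC effect in liver was lower than in brain by 2.25 (standard error 0.48, adjusted p = 0.000513). For Serpina3n it was higher by 1.23 ± 0.45 (adjusted p = 0.0275), a limma call lost after quantile normalization (0.94, 0.0839), after normexp (0.33, 0.713) and with NC and CC arrays fitted alone (0.0513). It was also lost without liver CC replicate 1 (0.0659), liver NC replicate 4 (0.0689), brain CC replicate 2 (0.0519) or brain NC replicate 2 (0.0633). The other 7 were not well above background in brain on most arrays. There, 6 member probes below background on all NC and CC arrays still differed by 0.51 to 1.15 between CC and NC, and 10155 probes that were dim on every brain array had a median difference of 0.92. The calls of Serpina3c, Serpina3k, Serpina3m, Serpina5 and Serpina10 in this contrast include that shift of the background.

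The deposited matrix of processed values gives another picture of CC liver. On NC and G20 arrays the log2 ratio of matrix to scanner value varied over probes with an SD of 0.01 to 0.06, and on CC arrays with an SD of 0.63 to 0.66. Over 20607 liver probes the CC group mean differed from the G20 group mean with an SD of 0.10 in the matrix and 0.57 in the scanner files, while CC differed from NC with an SD of 0.36 and 0.52. In the matrix, therefore, liver CC means sit near G20 means probe by probe. Serpina6 in the matrix read 2.11 to 4.42 in CC liver, 3.02 to 4.95 in G20 and −2.29 to 1.08 in NC, so that CC exceeded NC by 4.53 (limma adjusted p = 0.00242) where the scanner files gave −0.44. Serpina3k, Serpina3m and Serpina3c differed from NC by −4.86, −4.31 and −4.55 in CC by the matrix. In brain the SD of the CC and G20 difference was 0.19 in the matrix and 0.65 in the scanner files. That of the CC and NC difference was 0.19 and 0.69, so in the matrix brain CC means sat about as near to NC as to G20. The sources used here do not give how this factor was made, and every other value is from the scanner files.

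**Figure D4:**
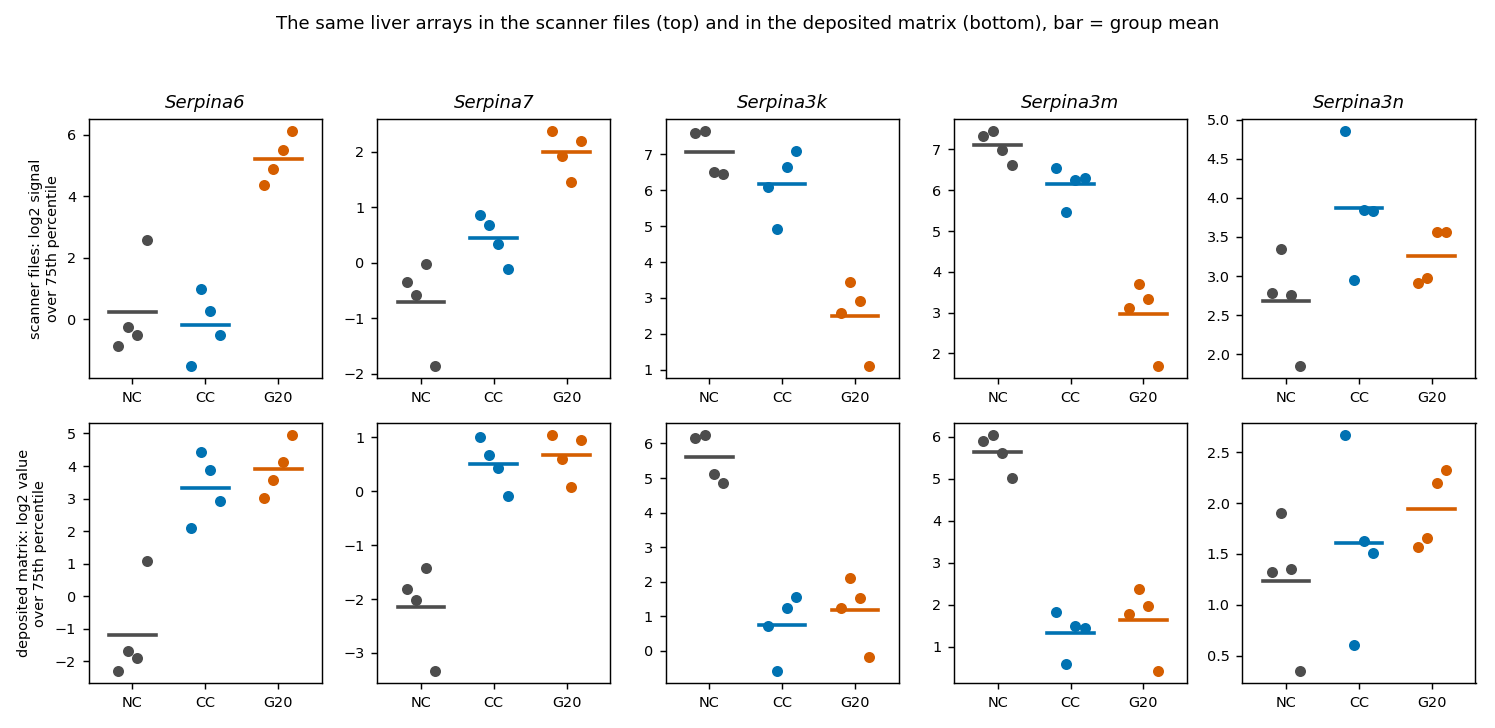
Levels of 5 Serpina genes on the same 12 liver arrays in the scanner files (top) and in the deposited matrix (bottom), as log2 values over the array's 75th percentile, with 1 point per array and a bar at the group mean (each panel has its own scale). In the top row the CC arrays of Serpina6, Serpina3k and Serpina3m lie nearer to NC, and in the bottom row they lie with G20.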

How the data were processed

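Per the file headers, the deposited scanner intensities are background-subtracted signals from Feature Extraction (Agilent, 9.5.3.1), with no scaling between arrays and probe coordinates on mm8. The spot flags are 0 or 1, deposited values of another kind. The deposited matrix holds linear intensities, whose scaling and centring are unstated (column medians 224 to 489), and 0 of its columns were left unused.

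Of 43379 spots other than controls, outlier spots were removed (46 to 149 an array), the rest averaged per probe as log2 signal, and each array centred on its 75th percentile. Probes well above background on all 4 arrays of a group were kept, with the brightest probe for a gene. Differences were fitted with limma 3.58.1 in R 4.3.3 over all groups of a tissue, or of both for tissue comparisons, with Benjamini-Hochberg adjustment over all genes and a threshold of 0.05. The fits were tested on simulated data. Motifs and promoter alignments were computed from RefSeq's table, and 23374 of 41174 probes matched a RefSeq accession.

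The members, the 8 gene lists and the 9 marker lists were chosen with earlier results of these data known. Text names all members, up to 4 called genes per list with the largest CC differences, 5 genes most like Serpina3k and Serpina6, and Alb, Afp and Ttr as checks. Other genes named (Serpina1c, Serpina11, Serpina3a, Serpina3g, LOC667984, Fgb, Vtn, Cps1, Hpx, Apob, Apoa1, Fga and Prtn3) were chosen after their values were seen. The number of arrays limits the precision. NC and CC animals gave both tissues, by their source names, and same-numbered brain and liver arrays correlated at 0.02 to 0.17 in their deviations. Other normalizations, filters, the replicate block and left-out arrays were tried as alternatives.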

Additional observations from a re-analysis of the deposited data

Results flagged for a closer look

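Of 42 groups of 4 arrays examined over the member probes, 4 held an array far from the other 3 by Dixon's ratio, where chance alone gives about 1 in 20. Serpina1d in NC brain replicate 2 read −3.55, against −5.20 to −5.08 on the others. Serpina3c in G20 liver replicate 4 read −2.05, against −0.38 to −0.04. Serpina10 in NC liver replicate 3 read 0.14, against 0.35 to 0.36. The second Serpina5 probe in CC liver replicate 4 read −5.07, against −4.23 to −4.13, where it was well above background on 1 of 4 arrays. The difference between CC and NC differed between tissues, by the limma contrast, for Serpina1d (−2.25, liver less brain) and for Serpina3n (1.23).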

How the results depend on the processing

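Of 360 member values under other settings 320 kept direction and, where tested, side of the threshold, as did 350 of 392 with 1 array left out. Values of G20 against NC have no test, and count among these where they moved by less than the SD between replicates. The totals include that contrast, which chose the members, and liver against brain in NC. They therefore do not measure how firm the CC calls are. With 1 array left out, the CC liver call stood in 4 of 8 fits for Serpina1d and 4 of 8 for Serpina3n. It stood in 3 of 8 for Serpina5 and 6 of 8 for Serpina7. In liver 4 members were called between CC and NC, 0 after normexp, 3 with the replicate block and 1 to 4 with an array left out. In the deposited matrix, where liver CC means sit near G20 means, the called members were others in part. Serpina6 and Serpina3m were called there, and Serpina1d and Serpina3n were not. The replicate number pairs no animals within a tissue, where deviations of same-numbered arrays correlated at −0.23 to 0.13, so the block (the animal, for tissue comparisons) stands only here, and 9 and 7 members were called with it in the 2 tissue comparisons. In brain 1 member was called, 1 with any array left out and 6 without the filter on dim probes, which lets in background. For G20 against NC, members without overlap numbered 7 to 8 in liver and 1 to 2 in brain with an array left out, and 2 in brain without the filter. Liver against brain in NC, where 7 of the genes passed the filter only through liver, gave 9 (9 with any array left out), and 4 in the deposited matrix, where dim values are blank and fewer genes are tested. The CC effect in liver against brain gave 7 members, 5 to 7 with an array left out, 2 after quantile normalization, 2 after normexp and 1 in the matrix. The cause of the quantile and normexp changes was not tested.

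Values that changed sign in CC liver were Serpina1d (0.20, quantile), Serpina6 (4.53 in the matrix, and 0.0084 and 0.35 without CC replicate 1 or NC replicate 4) and Serpina10 (−0.012 without CC replicate 1). With an array left out, Serpina10 ranged from −0.012 to 0.28, Serpina6 from −0.83 to 0.35, and Serpina3n in CC brain from −0.16 to 0.13. In CC brain Serpina3n was 0.083 with median centring, 0.11 with quantile normalization and 0.87 after normexp, and lay above 0 without CC replicate 2, CC replicate 3 or NC replicate 2. In the tissue contrast Serpina10 was 0.086 after quantile normalization and Serpina7 −0.79 after normexp. Normexp also moved Serpina3k in G20 to −2.82 and Serpina1d to 0.49. The median of all genes in CC brain was 0.13, and 0.25 with median centring, 0.39 after normexp, 0.45 without the filter and −0.16 in the matrix. In CC liver 3220 genes were called higher and 3439 lower, and 32 and 197 after normexp, 6781 and 3258 without the filter and 392 and 2458 in the matrix. Higher genes made up 48.4% of these calls, and 57.8% with median centring. In brain they made up 59.9%, and 68.3% with median centring and 2.57% in the matrix. In G20 liver they made up 58.9%, and 35.2% with median centring, 16.5% after normexp and 82.6% in the matrix. In brain, signal near background limits the 7 members other than Serpina1d and Serpina3n.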
